A study of Drosophila melanogaster with 28 samples.

Results

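The 10 pair-rule genes eve, h, run, ftz, odd, opa, prd, slp1, slp2 and sob were taken by symbol from the 16513 genes with a tested count of Rpb3 ChIP-seq reads. For each gene the annotated transcript with the highest mean count was used, and all 10 passed the filter on low counts. Rpb3 is a core subunit of RNA polymerase II (Pol II), so that reads over a gene span report Pol II occupancy. Occupancy was compared between DomKD and Ctrl embryos of Drosophila melanogaster at stage 5, the cellular blastoderm, when zygotic genome activation (ZGA) takes place. DomKD embryos carried the genotype label t216 and came from mothers expressing an shRNA against Domino, the remodeler that places the histone variant H2A.Z. Ctrl embryos carried the label t180 and came from the TRiP control line. Expression of the shRNA was driven in the maternal germline by mat-alpha-Gal4, so that the depletion concerns what the mother puts into the egg. Each group had 2 libraries, out of 28 samples in 14 groups in the series. Each library was made from many whole embryos, so that Pol II in fewer nuclei and less Pol II per nucleus cannot be told apart.

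Pair-rule genes divide the syncytial blastoderm into segments. Most are transcribed in a stripe for every other segment, under gap proteins, maternal factors and each other, and their products set the stripes of segment polarity genes such as en and wg. The early stripes of eve, h and run are read from separate enhancers, and expression of the whole group starts with ZGA, for which the pioneer factor Zelda opens chromatin.

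The sequence in front of the annotated starts is shown for 6 of the genes because of the short words it holds, and for sob because it holds none of the Zelda words. The 210 bases before each start are given 5' to 3' on the strand of the gene, from the NCBI release 6 genome (dm6). Capitals mark the heptamers bound by Zelda, namely CAGGTAG and CAGGTAA, together with TAGGTAG as well as CAGGCAG, on either strand, and the TATA word TATAAA. A heptamer on the opposite strand, as in prd and slp1, is read as its reverse complement.
ftz upstream bases (chr3R:6864114-6864323, plus strand): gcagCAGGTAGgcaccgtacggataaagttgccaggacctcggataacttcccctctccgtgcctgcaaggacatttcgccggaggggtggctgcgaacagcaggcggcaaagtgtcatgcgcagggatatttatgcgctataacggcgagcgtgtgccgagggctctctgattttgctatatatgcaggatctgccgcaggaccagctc
h upstream bases (chr3L:8675549-8675758, plus strand): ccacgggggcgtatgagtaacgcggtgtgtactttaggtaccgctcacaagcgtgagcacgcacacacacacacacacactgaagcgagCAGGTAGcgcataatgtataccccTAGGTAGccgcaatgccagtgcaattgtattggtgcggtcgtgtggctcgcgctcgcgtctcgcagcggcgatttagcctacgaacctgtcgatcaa
odd upstream bases (chr2L:3606757-3606966, minus strand): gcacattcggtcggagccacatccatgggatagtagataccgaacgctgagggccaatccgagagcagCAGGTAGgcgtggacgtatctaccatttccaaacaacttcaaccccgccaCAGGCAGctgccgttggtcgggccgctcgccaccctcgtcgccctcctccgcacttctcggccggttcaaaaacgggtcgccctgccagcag
opa upstream bases (chr3R:4852603-4852812, plus strand): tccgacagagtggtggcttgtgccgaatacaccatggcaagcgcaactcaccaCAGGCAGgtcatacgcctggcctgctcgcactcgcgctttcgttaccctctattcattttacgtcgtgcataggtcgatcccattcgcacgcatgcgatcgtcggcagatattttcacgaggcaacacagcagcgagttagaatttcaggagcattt
prd upstream bases (chr2L:12085828-12086037, minus strand): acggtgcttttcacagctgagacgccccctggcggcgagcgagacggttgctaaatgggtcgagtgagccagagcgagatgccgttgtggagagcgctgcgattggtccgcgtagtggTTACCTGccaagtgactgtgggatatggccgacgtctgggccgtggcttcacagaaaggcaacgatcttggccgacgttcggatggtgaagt
slp1 upstream bases (chr2L:3825465-3825674, plus strand): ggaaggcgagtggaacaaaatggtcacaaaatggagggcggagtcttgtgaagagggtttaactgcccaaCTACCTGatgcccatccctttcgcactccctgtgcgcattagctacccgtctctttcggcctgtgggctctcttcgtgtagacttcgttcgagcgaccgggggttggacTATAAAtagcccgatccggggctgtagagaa
sob upstream bases (chr2L:3580770-3580979, minus strand): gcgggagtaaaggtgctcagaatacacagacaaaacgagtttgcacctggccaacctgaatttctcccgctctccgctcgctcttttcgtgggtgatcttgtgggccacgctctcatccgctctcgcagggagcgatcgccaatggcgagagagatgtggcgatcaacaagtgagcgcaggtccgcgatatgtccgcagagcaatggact
Over the window of 250 bases before to 50 after the start, 7 of the 10 genes held a Zelda heptamer, against 8.14% of 16494 windows of all tested genes and 18.7% of the 817 windows of densely occupied genes, those with reads at 8 times background or more. The words lay between -206 in ftz and -86 in odd and prd. In eve a CAGGCAG on the opposite strand lay at -96 to -90, and h and odd held 2 words each. The 3 genes with none at the start used were run, slp2 and sob, and at the inner start of run, run-RA, TAGGTAG lay at -160 to -154. The word GAGAG, bound by GAGA factor, was present in 9 of 10 windows against 29.7% of all, with 6 partly overlapping matches in sob and none in opa. TATAAA on the strand of the gene at -45 to -20 was found in eve and slp1, against 7.59% of all windows. ATCGAT, the core of the DRE element of housekeeping promoters, was found in 0 of 10 windows against 21.1% of all. At the inner start of h, hry-RA, which was not among these windows, ATCGAT lay at -63 to -58 and no Zelda word was found. The windows of the 10 genes had a mean GC content of 55.6%, against 39.2% for all. These words are letters in a window, and binding was not measured here.

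Reads summed over the tested genes were 10414859 and 9244925 in DomKD replicates 1 and 2, and 12022604 and 8326382 in Ctrl replicates 1 and 2. The modal background of reads over long genes was 4.41 and 7.01 CPM (counts per 1000000 reads) per kb in DomKD, against 4.66 and 4.23 CPM per kb in Ctrl. DomKD replicate 2 stood apart, since 29.4% of its gene reads lay above that background, against 55.6% in DomKD replicate 1, 53.1% in Ctrl replicate 1 and 57.4% in Ctrl replicate 2. Of 8 markers of the stage 5 blastoderm, 6 were at 2 times background or more, and the median density was 22.4 times background. Fog and twi lay below, both at 1.61 times, over spans of 30878 and 62952 nt. The reason for these low values was not tested. The 8 markers summed to 7035 and 4212 CPM in DomKD against 4365 and 4373 CPM in Ctrl. Of 12 markers of later tissues, elav and Obp99a were at 2 times background or more and the median was 1.00 times background. Pol II at dom itself measured 599 and 371 CPM in DomKD, and in Ctrl 617 and 664 CPM, without passing the test (edgeR adjusted p = 0.267, log2 fold change -0.40, SE 0.26), which does not check an RNAi depletion of maternal RNA.

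The first genes to be striped were occupied in all 4 libraries, at 6.92 times background (run in DomKD replicate 2) or more. Eve (FBgn0000606; 2R, 9979319 to 9980795, plus strand), a homeodomain repressor that positions the odd-numbered parasegments, had 452 and 260 CPM in DomKD against 280 and 287 CPM in Ctrl. DomKD replicate 1 was thus above both Ctrl libraries and DomKD replicate 2 below both, and the log2 fold change of 0.33 did not pass the test (SE 0.26, 95% interval -0.18 to 0.83, edgeR adjusted p = 0.364). H (hairy, FBgn0001168, named hry in the annotation; 3L, 8675759 to 8679253, plus strand), a bHLH repressor that recruits Groucho, had 830 and 470 CPM in DomKD against 524 and 534 CPM in Ctrl. Its DomKD libraries again enclosed the Ctrl pair, with a log2 fold change of 0.30 (SE 0.27, edgeR adjusted p = 0.427). Run (FBgn0003300; X, 20690670 to 20697321, plus strand), the Runt-domain factor, had 473 and 296 CPM in DomKD against 318 and 335 CPM in Ctrl, a log2 fold change of 0.24 (SE 0.25, edgeR adjusted p = 0.509).

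**Figure D1:**
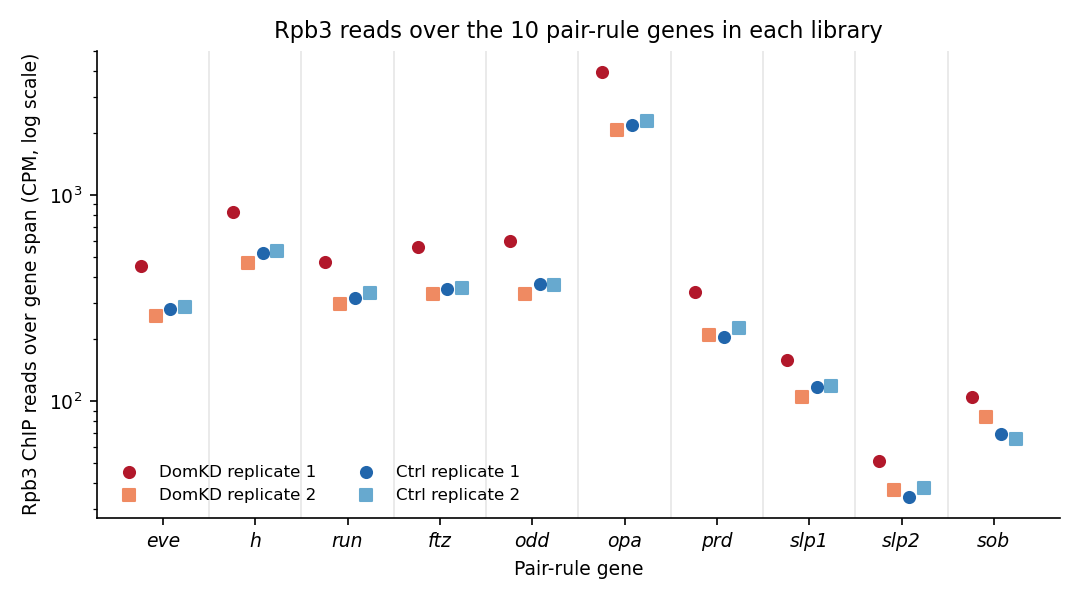
Rpb3 reads in CPM (log axis) over the span of each of the 10 pair-rule genes, with a point for each DomKD and Ctrl library. DomKD replicate 1 lies above both Ctrl libraries for all 10 genes, whereas DomKD replicate 2 lies near them and is above both for sob alone.

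The same pattern was seen in ftz and odd. Ftz (FBgn0001077; 3R, 6864324 to 6866244, plus strand), the homeodomain activator of the even-numbered parasegments, had 562 and 331 CPM in DomKD against 351 and 354 CPM in Ctrl. The log2 fold change was 0.34 (SE 0.26, edgeR adjusted p = 0.347). Odd (FBgn0002985; 2L, 3604224 to 3606756, minus strand), a zinc finger repressor, had 598 and 331 CPM in DomKD against 370 and 368 CPM in Ctrl, and a log2 fold change of 0.33 (SE 0.26, edgeR adjusted p = 0.368). In both genes the Ctrl libraries were nearly equal and lay between the DomKD libraries.

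Opa took about as many reads as the other 9 genes together. It encodes a Zic-type zinc finger protein that is expressed in a broad domain and not in stripes, and that acts as a timing factor for the later pair-rule network. Over its span of 17167 nt (FBgn0003002; 3R, 4852813 to 4869979, plus strand) it had 3946 and 2074 CPM in DomKD against 2177 and 2271 CPM in Ctrl. The log2 fold change was 0.44 with a larger SE than for the other genes (0.28, edgeR adjusted p = 0.269). Its part of the reads of the 10 genes was 52.5% in DomKD replicate 1 (95% Wilson interval 52.1 to 52.9) and 49.4% in DomKD replicate 2 (48.9 to 49.9), against 49.0% in Ctrl replicate 1 (48.6 to 49.4) and 49.4% in Ctrl replicate 2 (48.9 to 49.9). Such intervals cover counting error only. DomKD replicate 1 was therefore the library in which opa weighed more, and DomKD replicate 2 matched Ctrl.

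Among the genes that act later in the cascade, sob stood out by the position of its libraries. Prd (FBgn0003145; 2L, 12082995 to 12085827, minus strand), a Pax protein that activates en and wg, had 339 and 210 CPM in DomKD against 204 and 227 CPM in Ctrl. DomKD replicate 2 lay between the Ctrl libraries, and the log2 fold change was 0.35 (SE 0.25, edgeR adjusted p = 0.315). Slp1 (FBgn0003430; 2L, 3825675 to 3827099, plus strand), a forkhead-domain repressor, had 158 and 104 CPM in DomKD against 118 and 119 CPM in Ctrl, with the smallest log2 fold change of the 10 (0.15, SE 0.23, edgeR adjusted p = 0.659). Its neighbour and paralog slp2 (FBgn0004567; 2L, 3836840 to 3839185, plus strand) had 51.4 and 37.1 CPM in DomKD against 34.5 and 37.8 CPM in Ctrl (0.29, SE 0.21, edgeR adjusted p = 0.330). Here too DomKD replicate 2 lay within the Ctrl pair. Sob (FBgn0004892; 2L, 3578013 to 3580769, minus strand), a zinc finger paralog of odd, had 105 and 84.3 CPM in DomKD against 69.3 and 65.6 CPM in Ctrl. Its mean density was 5.75 times background. Of its reads, 13.0% and 21.1% in DomKD, and 18.2% and 17.6% in Ctrl, could be background. Both DomKD libraries of sob were above both Ctrl libraries, and its log2 fold change was the largest of the 10 (0.49, SE 0.22, 95% interval 0.06 to 0.91), with an unadjusted edgeR p of 0.0245 and an adjusted p of 0.106.

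Counted together, 0 of the 10 genes passed an adjusted p of 0.05, where 15.1% of all tested genes did, 2.46% higher and 12.7% lower in DomKD. The count was also 0 by edgeR's quasi-likelihood test, which called 1933 of the 16513 genes, and by DESeq2, which called 1155. At an unadjusted p under 0.05 only sob was called, against 31.0% of all genes. All 10 log2 fold changes were above 0, as were 54.7% of those of all genes. When the libraries were scaled on other early zygotic genes, 6 of the 10 signs turned (below 0 for eve, h, run, odd, slp1 and slp2). Those genes, the gap genes among them, had a median of 0.28 themselves. Scaling on them therefore moves the pair-rule genes towards 0, and these signs are relative to that list only. The median of the 10 was 0.33, with a range of 0.15 to 0.49, against a median of 0.07 for all genes and -0.40 for the 5963 occupied genes (reads at 2 times background or more). The spread among the 10 genes (SD 0.094) was smaller than the median SE of a gene (0.25). Both DomKD libraries were above both Ctrl libraries in 1 of 10 genes. This was so for 30.8% of all, 7.63% of occupied and 9.30% of densely occupied genes. The result turned on the DomKD libraries. Without DomKD replicate 2 all 10 genes were called higher (11.3% of all genes were), with a median of 0.64. Without DomKD replicate 1 the median was -0.12, h and odd were called lower (31.5% of all genes were) and sob was called higher (21.9% of all genes were). In these fits the lone DomKD library is assumed to vary like the Ctrl libraries.

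Set against the mean of the Ctrl libraries, DomKD replicate 1 was higher in all 10 genes, with a median log2 ratio of 0.65 and a range of 0.42 to 0.83, and it lay above both Ctrl libraries in all 10, compared with 41.6% of all genes and 67.3% of densely occupied genes. DomKD replicate 2 had a median log2 ratio of -0.11 and a range of -0.18 to 0.32. It was below both Ctrl libraries in 7 of 10 genes, compared with 43.5% of all genes and 83.5% of densely occupied genes, and above both only for sob (47.3% of all genes and 9.42% of densely occupied genes). Over densely occupied genes the medians were 0.31 and -0.35 in the same libraries. Sob, at 5.75 times background, and slp2, at 3.35 times, are not themselves among the densely occupied genes. The 10 genes took 0.672% and 0.457% of the gene reads in DomKD, against 0.454% and 0.463% in Ctrl.

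**Figure D2:**
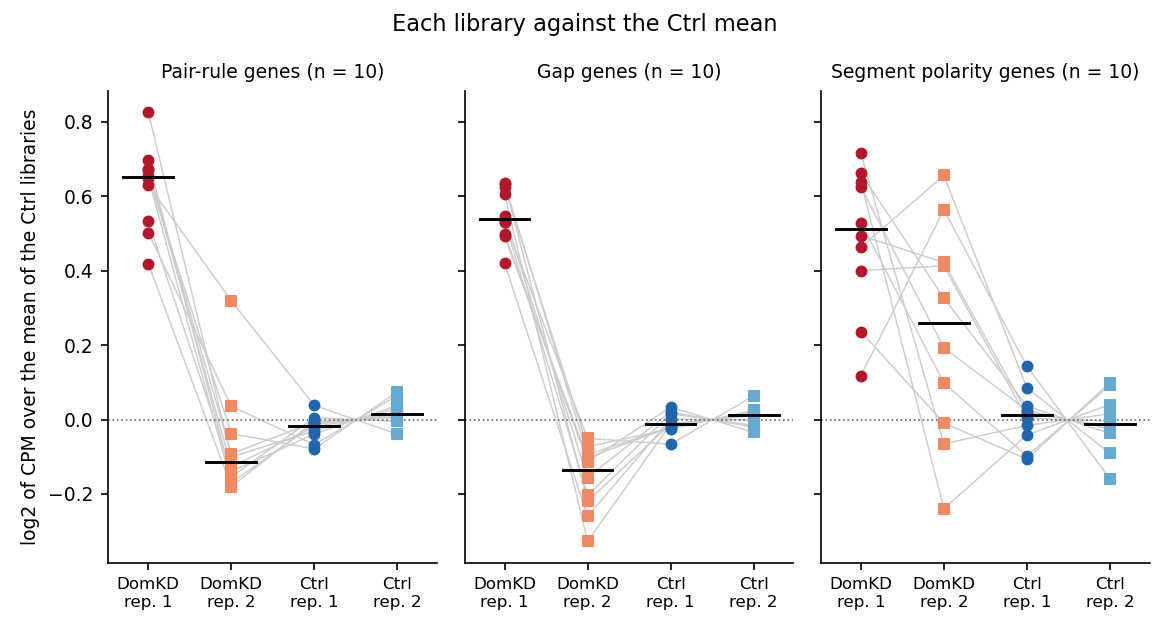
Log2 of the CPM of each library over the mean of the Ctrl libraries, for 10 pair-rule, 10 gap and 10 segment polarity genes. Grey lines join the values of a gene and black bars are medians, which for pair-rule genes are 0.65 in DomKD replicate 1 and -0.11 in DomKD replicate 2.

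Levels were compared between genes as read density, in CPM per kb of span without TMM (trimmed mean of M values) factors. In DomKD the densities were 233 ± 58 CPM per kb for eve, 224 ± 52 for ftz, 179 ± 47 for h, 177 ± 49 for odd, 169 ± 52 for opa, 93.8 ± 19 for prd, 89.5 ± 14 for slp1, 56.0 ± 11 for run, 33.6 ± 0.51 for sob and 18.4 ± 1.7 for slp2 (SD, n = 2). In Ctrl they were 195 ± 1.8 CPM per kb for eve, 186 ± 0.55 for ftz, 153 ± 0.44 for h, 148 ± 2.2 for odd, 131 ± 2.6 for opa, 77.0 ± 5.0 for prd, 84.1 ± 0.40 for slp1, 49.7 ± 1.4 for run, 24.8 ± 1.2 for sob and 15.6 ± 0.87 for slp2 (SD, n = 2). The order was the same in each of the 4 libraries except that prd was above slp1 in both DomKD libraries and below it in both Ctrl libraries. Within a library, the density of slp1 over that of prd ranged from 0.928 to 1.15, that of eve over ftz from 1.02 to 1.05 and that of h over odd from 1.01 to 1.05. In DomKD the steps among the 5 uppermost genes, and that between prd and slp1, were smaller than the SDs on either side. In Ctrl every step was larger than the SDs. Every gene was denser in DomKD replicate 1 than in DomKD replicate 2. The DomKD SDs thus hold a shared difference and do not measure the order within a library.

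Eve, ftz, h, odd and opa were among the 101 genes with the highest density, and eve ranked 52. Over background, the density of eve was 62.1 and 27.3 times in DomKD against 41.5 and 46.3 times in Ctrl. At the lower end slp2 was 4.45 and 2.45 times background in DomKD against 3.22 and 3.84 times in Ctrl, so that 22.5% and 40.8% of its reads in DomKD, and 31.1% and 26.1% in Ctrl, could be background. For eve that part was 1.61% and 3.66% in DomKD, and 2.41% and 2.16% in Ctrl. The median over the 10 genes was 35.5 and 15.1 times background in DomKD against 22.9 and 25.6 times in Ctrl.

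**Figure D3:**
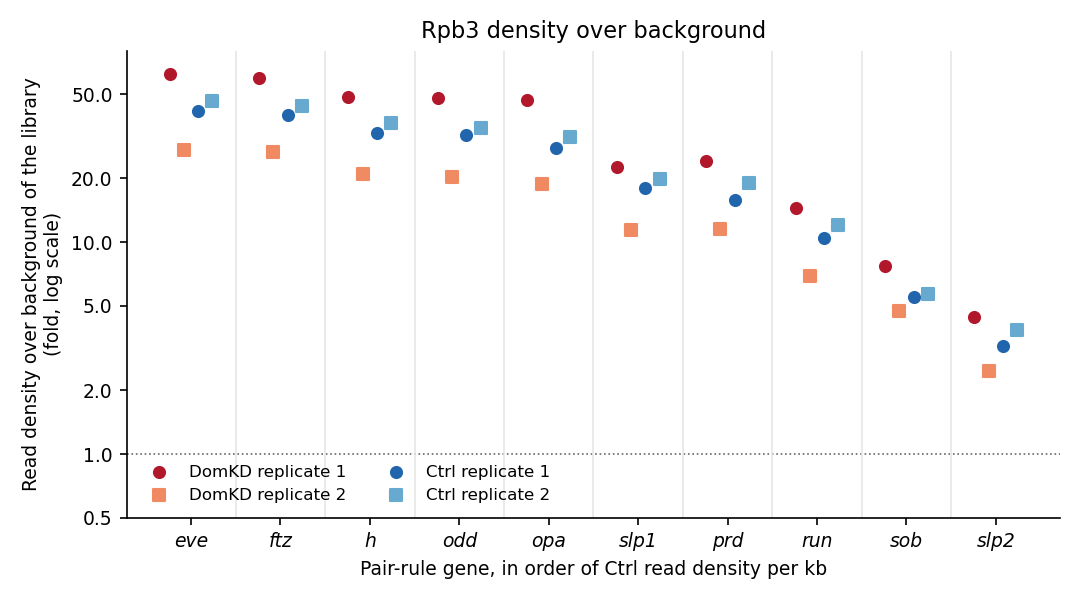
Read density of each pair-rule gene over the modal background of the same library (fold, log axis), with the genes in order of Ctrl density per kb and a point for each library. For every gene DomKD replicate 1 is highest and DomKD replicate 2 lowest, with eve at 62.1 and 27.3 times in DomKD against 41.5 and 46.3 times in Ctrl.

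The paralog pairs differed widely in level. Slp1 and slp2 lie 9740 nt apart and share enhancers and stripes, yet the density of slp1 was 5.07 and 4.63 times that of slp2 in DomKD, and 5.62 and 5.16 times in Ctrl. Odd and sob lie 23454 nt apart. Odd was 6.21 and 4.28 times as dense as sob in DomKD, and 5.81 and 6.10 times in Ctrl. Of the signal of the 10 genes above background, sob held 1.25% and 1.70% in DomKD against 1.33% and 1.22% in Ctrl. DomKD replicate 1 lay within the Ctrl pair in this measure, and DomKD replicate 2 above it.

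H, prd and run have annotated transcripts with several starts, which allows reads near the outer start to be set apart from the rest of the span. For h, the 196 nt between the hry-RB and hry-RA starts had 320 and 306 CPM per kb in DomKD against 323 and 349 CPM per kb in Ctrl. Over the remaining hry-RA span the density was 206 and 137 CPM per kb in DomKD against 143 and 142 CPM per kb in Ctrl. The start segment was therefore denser than the mean of the hry-RA span in all 4 libraries. Counts over whole spans do not show where within the hry-RA span Pol II was densest. On this scale, which has no TMM factors, the higher value of DomKD replicate 1 lay in the hry-RA span. With TMM factors, the log2 ratio of DomKD replicate 1 to the Ctrl mean was 0.11 in the start segment and 0.71 over the hry-RA span. The start segment held 8.44% (95% Wilson interval 7.84 to 9.08) and 11.7% (10.8 to 12.7) of the h reads in DomKD, against 11.8% (11.1 to 12.7) and 12.7% (11.8 to 13.7) in Ctrl. The interval of DomKD replicate 1 lay below those of the other libraries.

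For prd, the 449 nt before the prd-RA start had 204 and 182 CPM per kb in DomKD against 159 and 183 CPM per kb in Ctrl, and the prd-RA span had 88.7 and 61.4 CPM per kb in DomKD against 57.2 and 61.2 CPM per kb in Ctrl. The segment held 30.3% (28.7 to 31.9) and 35.8% (33.8 to 37.9) of the prd reads in DomKD, against 34.4% (32.6 to 36.3) and 36.02% (33.9 to 38.2) in Ctrl. As for h, the lowest part was that of DomKD replicate 1. As background, 87 densely occupied genes have transcripts that end together and start 100 to 600 nt apart, with at least 20 reads in the segment. Over these genes the log2 of the segment's part relative to the Ctrl mean had a median of -0.02 in DomKD replicate 1 (quartiles -0.21 and 0.15) and of 0.03 in DomKD replicate 2 (quartiles -0.13 and 0.23). The value of h was -0.54 and -0.07 in the 2 DomKD libraries, and that of prd was -0.22 and 0.03, so that both genes were below the lower quartile in DomKD replicate 1 and within the quartiles in DomKD replicate 2.

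Run showed the opposite arrangement. The 3769 nt before the run-RA start had 16.6 and 13.0 CPM per kb in DomKD against 11.9 and 9.91 CPM per kb in Ctrl, which is 3.76 and 1.85 times background in DomKD and 2.55 and 2.34 times in Ctrl, while the run-RA span had 125.025 and 94.96 CPM per kb in DomKD against 97.0 and 104 CPM per kb in Ctrl. The reads thus lay over the inner transcript, whose upstream window holds the Zelda word named above, and the low density of run in the order of levels comes with its long run-RC span.

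**Figure D4:**
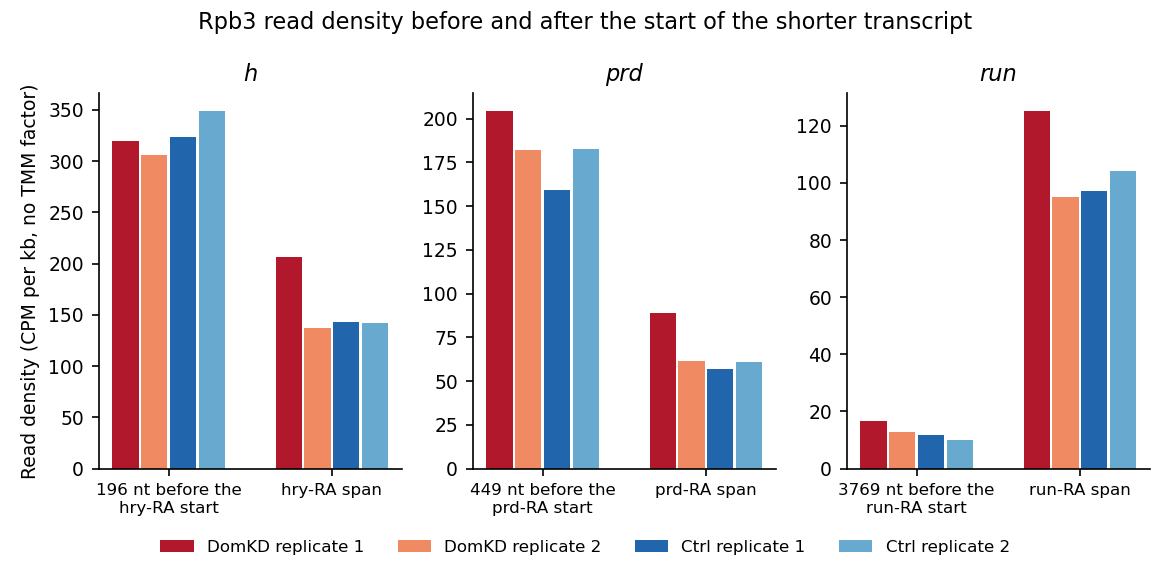
Rpb3 read density (CPM per kb, without TMM factors, each panel on its own scale from 0) before and within the span of the shorter transcript of h, prd and run, with a bar for each library. In h the start segment is at 306 to 349 CPM per kb, and on this scale DomKD replicate 1 stands out only over the hry-RA span. In run the outer segment is at most 16.6 CPM per kb.

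Over all transcripts, 16.3% of 33659 were called, and 0 of the 14 annotated transcripts of the 10 genes were. The lowest adjusted p was that of sob-RA (0.0751, edgeR). Isoforms share reads, and the 3 isoforms of run had log2 fold changes of 0.23, 0.19 and 0.17.

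The calls depended on how the libraries were scaled and on which genes were fitted. When TMM factors and the edgeR test were restricted to the 5963 occupied genes, all 10 pair-rule genes were called higher in DomKD, where 21.6% of the occupied genes were higher and 1193 genes lower. The log2 fold changes were then 0.49 (slp1, edgeR adjusted p = 3.9e-04) to 0.84 (sob, edgeR adjusted p = 6.9e-10), with a median of 0.65. These values are relative to the occupied genes. This fit also estimated its own dispersion, with a common coefficient of variation of 0.089 against 0.151 over all genes. The SE of eve was 0.14, against 0.26 in the fit over all genes. The parts of scaling and dispersion in these calls were not tested separately. The median of the occupied genes was -0.40 with factors over all genes and -0.04 with their own factors. In the same fit all 10 gap genes, all 6 occupied segment polarity genes and all 6 other pair-rule targets were called higher as well. Of the 8 occupied maternal regulators and cofactors 4 were higher and 3 lower. Factors from 46 early zygotic genes outside the pair-rule group moved the median of all genes to -0.18 and that of the 10 genes to -0.003. With these factors 0 of the 10 were called. The 46 genes include the gap genes and had a median of 0.28 with factors over all genes.

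Taking the modal background off each count and scaling to the signal that was left gave 658 and 704 ppm of the signal for eve in DomKD against 477 and 458 in Ctrl. For opa the values were 5715 and 5526 ppm in DomKD against 3665 and 3580 ppm in Ctrl, and for slp2 59.0 and 61.8 ppm in DomKD against 41.5 and 45.5 ppm in Ctrl. On this scale both DomKD libraries were above both Ctrl libraries for all 10 genes, as they were for 17.9% of occupied and 54.0% of densely occupied genes. The log2 ratios ran from 0.38 (slp1) to 0.78 (sob), and their median per library was 0.49 and 0.57 in DomKD for the 10 genes, against 0.13 and 0.30 for the densely occupied genes. These values have no test. They are shares of the signal of a library, and the occupied genes as a whole had medians of -0.54 and -0.49 in DomKD, so that a higher share and more Pol II cannot be told apart.

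**Figure D5:**
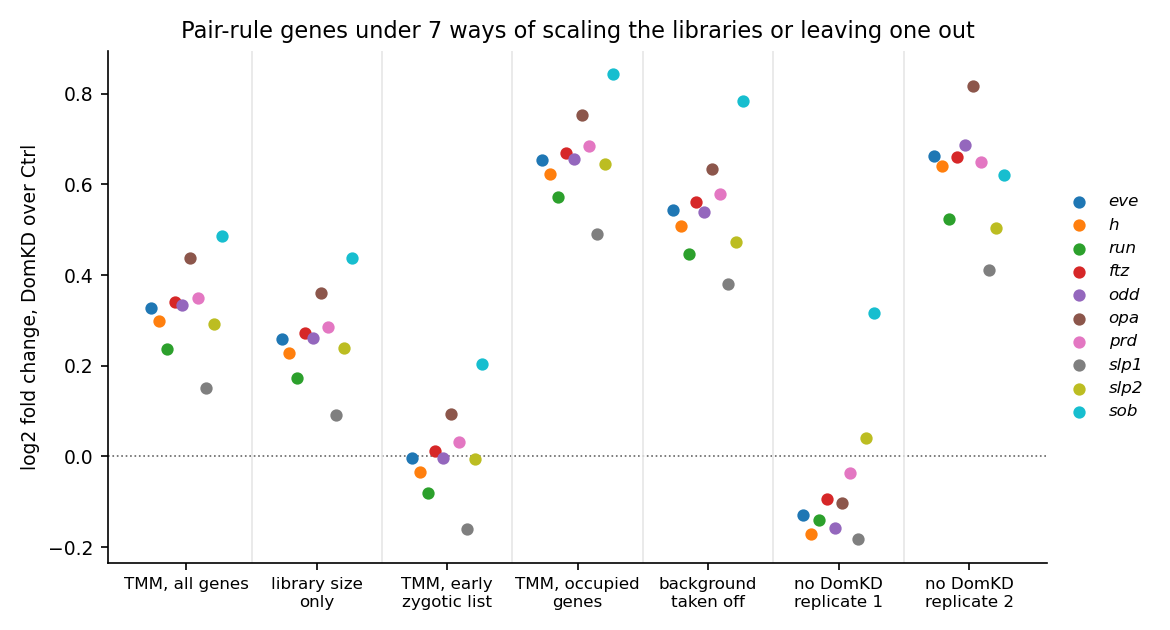
Log2 fold change (DomKD over Ctrl) of each pair-rule gene under 5 scalings and without either DomKD library. The values lie above 0 with TMM over all genes, with library size, over occupied genes, with background taken off and without DomKD replicate 2, around 0 on the early zygotic list, and below 0 for 8 of 10 genes without DomKD replicate 1.

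The genes upstream and downstream of the pair-rule genes were taken from lists chosen with earlier results of these data known. Of 10 gap genes, which encode the regulators of the early stripes, 0 passed the test (15.1% of all genes did), and their median log2 fold change was 0.23. Hb had 897 and 550 CPM in DomKD against 622 and 604 CPM in Ctrl, and oc (orthodenticle) 864 and 532 CPM in DomKD against 550 and 569 CPM in Ctrl. In both, as in eve, DomKD replicate 1 was above and DomKD replicate 2 below the Ctrl libraries.

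Of 12 maternal regulators and cofactors that were tested, 2 were lower in DomKD and 0 were higher, where 12.7% of all genes and 30.6% of occupied genes were lower. Both are corepressors of several pair-rule proteins. Gro (Groucho) had 170 and 111 CPM in DomKD against 217 and 230 CPM in Ctrl (-0.67 on the log2 scale, SE 0.24, edgeR adjusted p = 0.0391), and CtBP had 215 and 160 CPM in DomKD against 364 and 368 CPM in Ctrl (-0.97, SE 0.23, edgeR adjusted p = 0.0013). The most abundant genes of this list did not pass, with zld at 2263 and 1273 CPM in DomKD against 1473 and 1531 CPM in Ctrl, and cad at 663 and 563 CPM in DomKD against 485 and 488 CPM in Ctrl.

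Of 10 segment polarity genes, 1 was higher in DomKD and 0 were lower, where 2.46% of all genes were higher and 12.7% lower. Their median log2 fold change was 0.39. As in sob, both DomKD libraries were above both Ctrl libraries in 6 of the 10, where this was so for 30.8% of all genes. The gene called higher was gsb-n, a Pax gene with 65.0 and 74.4 CPM in DomKD against 50.0 and 44.2 CPM in Ctrl (0.57, SE 0.21, edgeR adjusted p = 0.0477). Its density was 0.967 times background, so that most of its reads could be background. The Wnt feedback gene nkd had 3208 and 1866 CPM in DomKD against 1931 and 1974 CPM in Ctrl, and ptc, the Hedgehog receptor, had 2530 and 1375 CPM in DomKD against 1577 and 1670 CPM in Ctrl, and neither passed. The 6 other targets of pair-rule proteins gave 0 calls (median 0.28), where 15.1% of all genes were called. Blimp-1, a zinc finger repressor, came nearest with 1049 and 661 CPM in DomKD against 524 and 546 CPM in Ctrl (0.68, SE 0.26, edgeR adjusted p = 0.055), and the teneurin Ten-m had 3986 and 2514 CPM in DomKD against 2712 and 2830 CPM in Ctrl. The 10 paralogs of pair-rule genes likewise gave 0 calls (median 0.25), among them bowl at 223 and 186 CPM in DomKD against 196.0 and 196.3 CPM in Ctrl, and dpn at 438 and 273 CPM in DomKD against 300 and 313 CPM in Ctrl.

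Strand was not used in counting, so that reads of overlapping antisense genes cannot be told apart from those of the gene. The antisense gene asRNA:CR43948 overlaps the 5' end of eve and had 183 and 119 CPM in DomKD against 123 and 119 CPM in Ctrl. The antisense gene asRNA:CR44592 overlaps the start of prd, and includes the upstream bases of prd printed above, with 98.4 and 72.4 CPM in DomKD against 64.0 and 76.9 CPM in Ctrl. Within 2000 nt lay lncRNA:CR45610 near run, lncRNA:CR44590 and lncRNA:CR44593 near prd, and CG43815 near sob. None of these 6 genes passed the test, and their edgeR adjusted p ranged from 0.335 to 0.799.

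Outside the list, the occupied genes whose 4 log2 ratios of CPM to the Ctrl mean lay nearest to the median pattern of the 10 genes were CG12725, dan, rib, tll and retn (Euclidean distance over 4 libraries, 0.016 to 0.029). Dan, for example, had 821 and 479 CPM in DomKD against 516 and 533 CPM in Ctrl. Among them only tll is on the lists used here, as a gap gene.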

How the data were processed

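Rpb3 ChIP-seq of 2 DomKD and 2 Ctrl libraries from stage 5 embryos was analysed. No input was subtracted, since the remaining 24 samples were left out. The deposited table holds raw counts per annotated transcript. The authors trimmed and mapped the reads to dm6 with snakePipes, removed duplicates, and counted reads over whole transcript spans with featureCounts, regardless of strand and for every transcript overlapped. The deposited span column was used as length. Of 34793 transcripts, 34516 matched the BDGP6 annotation by identifier. The symbol h was found as hry, and nos was not matched.

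Spans under 125 nt and sums of 10 reads or fewer were dropped. The counts, with 1 transcript per gene, were tested by the likelihood ratio test of edgeR 4.0.16 in R 4.3.3 with TMM factors (0.895 and 1.09 in DomKD, 1.02 and 1.01 in Ctrl) and Benjamini-Hochberg adjustment over all genes. The study scaled on its own Zelda target list, which was not used. Log2 ratios of single libraries use a pseudocount of 0.5 CPM. The background of a library is the mode of log2 density over genes above 2000 nt (kernel bandwidth 0.1). Promoter windows were read from the release 6 genome at annotated starts. Alternatives were DESeq2 1.42.0, quasi-likelihood, other scalings, filters and transcripts, a replicate block and leaving out libraries. Labels do not say whether replicates were separate collections, while the paper calls the Rpb3 experiments of each genotype biologically independent. The p-values measure the spread between these libraries.

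The genes named were the 10 members, dom, the 2 most abundant and all called genes of each segmentation list, genes within 2000 nt of a member, and the 5 nearest patterns. Markers were named after their values were seen. His2Av had a log2 fold change of -0.35 (edgeR adjusted p = 0.25). The members, lists and tests were chosen with earlier results of these data known.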

Additional observations from a re-analysis of the deposited data

How the results depend on the processing

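Each group had 2 libraries, and DomKD replicate 2 was low in enrichment. In the fit over all genes the pair-rule fold changes had standard errors near 0.25. The calls depended on scaling and on the genes fitted. The number of pair-rule genes called was 0 under library size scaling, the early zygotic list, the quasi-likelihood test, DESeq2, other filters, the longest or shortest transcript and both blocks, and 10 with occupied genes only. Over the fits that leave out a library it ranged from 0 to 10, the median from -0.12 to 0.64, and the number of all genes called from 137 to 8825. Their log2 fold changes ranged from -0.13 to 0.66 for eve, -0.0945 to 0.66 for ftz, -0.17 to 0.64 for h, -0.14 to 0.52 for run, -0.16 to 0.69 for odd, -0.10 to 0.82 for opa, -0.0367 to 0.65 for prd, -0.18 to 0.41 for slp1, 0.04 to 0.50 for slp2 and 0.32 to 0.62 for sob. On the early zygotic list the signs turned for eve (-0.00302), h (-0.0351), run (-0.0818), odd (-0.00306), slp1 (-0.16) and slp2 (-0.00528). DESeq2 called 1155 genes (49 higher and 1106 lower) against 2498 (406 higher and 2092 lower). The split was 145 higher and 2474 lower with library size, 6 and 2805 on the early zygotic list, and 1288 and 1193 over occupied genes. The cause of these differences was not tested.

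Deviations of same-numbered libraries from their group means had a correlation of -0.15 over 16513 genes. With 2 libraries per group the other pairing gives 0.15 by construction, so that this value cannot show or exclude a pairing. The main test does not pair the libraries. With the replicate block 1858 of the 16513 genes were called, and 0 pair-rule genes and 0 of their transcripts, with a pair-rule median of 0.28. A crossed pairing, added after seeing the data, called 3413 genes and 0 pair-rule genes.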
